A study of Mus musculus with 10 samples.

Results

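Arthritis in old mice was described from 4 of the 10 spleen arrays of the study, 2 from mice labeled old and arthritic and 2 from mice labeled old and non-arthritic. The members were chosen by the sample titles alone, so no measured value entered the choice. Both old arthritic mice were 9 months of age. The old non-arthritic mice were 7 months (replicate 1) and 5 months (replicate 2) of age. The remaining arrays, 2 from young arthritic mice of 5 and 4 months and 4 from young non-arthritic mice of 3, 3, 2 and 1 months, entered the estimate of the spread and served as a comparison. All 10 animals were female BALB/c mice of no stated mutation. All had received cartilage proteoglycan (PG) in the adjuvant dimethyldioctadecylammonium bromide (DDA) by intraperitoneal injection on days 0, 21 and 42, so neither group holds naive mice. The paper counts age at the first PG injection, and a mouse sampled at 1 month could not have been injected on day 42. The ages above are therefore likely to be those at the first injection and not at sampling. One array was hybridized per mouse with biotinylated cRNA from total RNA of a piece of whole spleen. Since both arthritic mice were older than both non-arthritic mice of the group, arthritis and age cannot be told apart in this comparison. Precision is limited by the number of arrays, and a permutation of 2 against 2 arrays cannot give a two-sided p below 0.333.

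PG-induced arthritis (PGIA) is an autoimmune model of rheumatoid arthritis in BALB/c mice, in which T cells and antibodies raised against cartilage PG turn on the animal's own joints. The spleen is one of the lymphoid organs where PG-specific B and T cells expand, where plasma cells form and where macrophages of the red pulp clear old erythrocytes. In the mouse it also makes blood cells throughout life, and erythroid cells, megakaryocytes and neutrophil precursors in the red pulp can increase under inflammation. Neutrophil precursors make their granule proteins in a fixed order. The primary (azurophil) granule proteases and myeloperoxidase are transcribed in promyelocytes, the secondary and tertiary granule proteins in myelocytes and later stages.

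The tissue label was checked against genes of spleen cells. The B cell antigen receptor subunit Cd79a gave log2 signals of 12.83 and 12.87 in the arthritic and 12.49 and 12.74 in the non-arthritic mice, and Cd5l, a secreted protein of tissue macrophages, gave 11.58 and 11.63 against 11.66 and 11.44. Of 17 genes of the exocrine pancreas on the array, an organ that adjoins the spleen, 7 passed the filter on dim probe sets. Prss2, the trypsinogen among them, gave 8.20 and 8.18 against 8.70 and 8.55. The median signal of an array lay between 6.88 and 6.96 in all 10 arrays. The lowest 0.1% of the signals ended at 3.38 and 3.38 in the old arthritic mice and at 3.29 and 3.29 in the old non-arthritic mice.

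Old arthritic replicate 2 stood apart from the other arrays. Its correlation with arthritic replicate 1 was 0.970 over the kept probe sets, whereas arthritic replicate 1 correlated at 0.987 and 0.988 with the 2 non-arthritic mice, and these correlated with each other at 0.990. Xist, the RNA that coats the inactive X chromosome of female cells, gave 13.24 in arthritic replicate 1 and 12.81 and 13.02 in the non-arthritic mice, but 7.64 in arthritic replicate 2. The other kept Xist probe sets gave the same order, with 5.68 in this mouse against 12.10, 11.98 and 12.06 (1427262_at), and 5.86 against 8.32, 8.27 and 8.21 (1427263_at). The histone demethylase gene Kdm6a, which is also transcribed from the inactive X chromosome, gave 10.14 in arthritic replicate 2 and 10.92, 10.93 and 10.90 in the other old mice (1427672_a_at). Over the 16 kept probe sets of Kdm6a and of Ddx3x, Eif2s3x and Kdm5c, 3 further genes of this kind, replicate 2 was the lowest old mouse in 12. Its difference from the mean of the other old mice ran from -2.05 to 0.12 with a median of -0.21. For Ddx3x (1423043_s_at), 12.46 stood against 12.55, 12.47 and 12.53, and for Kdm5c (1444158_at) 9.55 stood against 9.49, 9.63 and 9.70, so the difference was small in these. The 9 probe sets of Y-linked genes stayed between 3.19 and 4.96 in all arrays, with a highest value of 4.79 in arthritic replicate 2. The median difference between the arthritic mice, replicate 2 minus replicate 1, was 0.06 over 344 X-linked genes without Xist and 0.08 over 11507 autosomal genes. Medians of the gene lists are therefore given for each arthritic mouse.

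Between old arthritic and old non-arthritic mice, 17 of 23805 probe sets passed the threshold (0.0714%; limma, adjusted p under 0.05), 15 of them higher (0.063%) and 2 lower (0.0084%) in arthritic mice. At an unadjusted p under 0.05 there were 4433. The called probe sets include an immunoglobulin light chain variable segment, a ubiquitin ligase of the tripartite motif family and an ankyrin, but none of the genes on any of the 28 lists of cell types and pathways. Gene lists described below therefore rest on counts of mice whose values do not overlap and on medians, not on calls. Both arthritic mice lay above both non-arthritic mice in 38.4% of all named genes and below them in 16.6%, and each count is to be read against these shares. Of the lists, those of neutrophil granule genes lay farthest above the non-arthritic mice, by medians of 1.38 and 1.17 on the log2 scale against 0.07 for all 11870 named genes. Cell cycle, erythroid and megakaryocyte genes lay above as well, by medians of 0.39, 0.29 and 0.27, and T cell, NK cell and mesothelial genes below, by -0.21, -0.39 and -0.64.

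Among the called probe sets, 4 had group means above the array medians on both sides. With a stricter filter, a signal above the array median in at least 8 arrays, no probe set passed, these 4 included. One of the 4 carries the symbol Igkv9-120, a kappa light chain variable segment of antibodies (1452536_s_at). It gave 11.87 and 12.04 in the arthritic and 10.30 and 10.16 in the non-arthritic mice. This probe set was 3.31-fold higher in arthritic mice (log2 difference 1.73, SE 0.19, limma adjusted p = 0.0240), and the groups were far apart with each pair close together. The brighter probe set of the same symbol gave 13.49 and 13.13 against 13.09 and 13.35 and overlapped (log2 difference 0.08, limma adjusted p = 0.76). Variable segments of one family are close in sequence, so the segment measured by either probe set is uncertain.

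Trim62, which encodes a ubiquitin ligase (1436807_x_at), gave 8.41 and 8.33 against 7.55 and 7.54, a log2 difference of 0.82 (SE 0.09, limma adjusted p = 0.0219). Its second kept probe set gave 8.15 and 8.38 against 7.73 and 7.55 and did not pass. Jpt1, a small microtubule-associated protein also known as Hn1 (1438988_x_at), gave 10.30 and 10.40 against 9.60 and 9.59, a log2 difference of 0.75 (SE 0.09, limma adjusted p = 0.0263). The other probe sets of Jpt1 gave 11.11 and 11.22 against 10.87 and 10.93, and 11.54 and 11.66 against 11.45 and 11.52, so the separation was wide only in the called one. A probe set without a single gene symbol, 1458994_at, gave 7.20 and 7.11 against 8.54 and 8.76 and was 2.81-fold lower in arthritic mice (log2 difference -1.49, SE 0.19, limma adjusted p = 0.0361).

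The other 13 called probe sets had a group mean below the array medians, where a signal above background was not shown, so their values carry no fold. Gm12108 gave 7.07 and 6.94 against 5.90 and 5.74 (limma adjusted p = 0.00955), and 1700031F05Rik gave 7.00 and 7.13 against 5.82 and 5.79 (limma adjusted p = 0.0206). Ank3, which encodes the membrane adaptor ankyrin-G, was the called gene with lower values, with 5.87 and 5.94 against 6.90 and 6.87 (limma adjusted p = 0.0361). Cog7, a subunit of a tethering complex of the Golgi apparatus, gave 7.52 and 7.80 against 6.82 and 6.79 (limma adjusted p = 0.0335). Syngr3, a synaptic vesicle protein, gave 7.00 and 7.26 against 6.23 and 6.22 (limma adjusted p = 0.0390). Lmtk3, a kinase, gave 7.68 and 7.68 against 6.93 and 6.88 (limma adjusted p = 0.0417). A probe set of Rpl39, a ribosomal protein of the large subunit, gave 6.98 and 6.97 against 6.27 and 6.29 (limma adjusted p = 0.0263). The remaining called probe sets, all higher in arthritic mice, belong to 1700020L24Rik, Pitpnm2os1, A930016O22Rik, the polarity protein gene Lin7b and to 2 sets without a single symbol, 1454447_at and 1459460_at. Of the 17, 11 passed the filter through arthritic arrays only and 1 through non-arthritic arrays only, so that they had to differ to be tested. The 14 genes with a called probe set have 16 further probe sets on the array, of which 4 were kept and none was called.

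In all 15 probe sets called higher, the 4 arthritic mice of both age groups lay above the 6 non-arthritic mice, as did 10.4% of all kept probe sets, and in both called lower they lay below them (1.72% of all). Since 11 of the 17 passed the filter only through arthritic arrays, of either age group, these counts are a description. In Igkv9-120 (1452536_s_at) the young arthritic mice gave 11.99 and 12.29 and the young non-arthritic mice 10.64 to 11.22, and in Jpt1 they gave 10.29 and 10.41 against 9.48 to 9.57. The lowest 0.1% of signals also ended higher in both old arthritic arrays (3.38 against 3.29) and in both young arthritic arrays (3.36 against 3.25 to 3.30). All arthritic arrays thus ended above all non-arthritic arrays here, the same order as in the called higher probe sets. The part of this shift in the calls was not tested. Without old arthritic replicate 2, where the spread of the lone arthritic mouse is taken from the other groups, no probe set passed (2355 at an unadjusted p under 0.05), and without old arthritic replicate 1, 1532 passed.

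**Figure D1:**
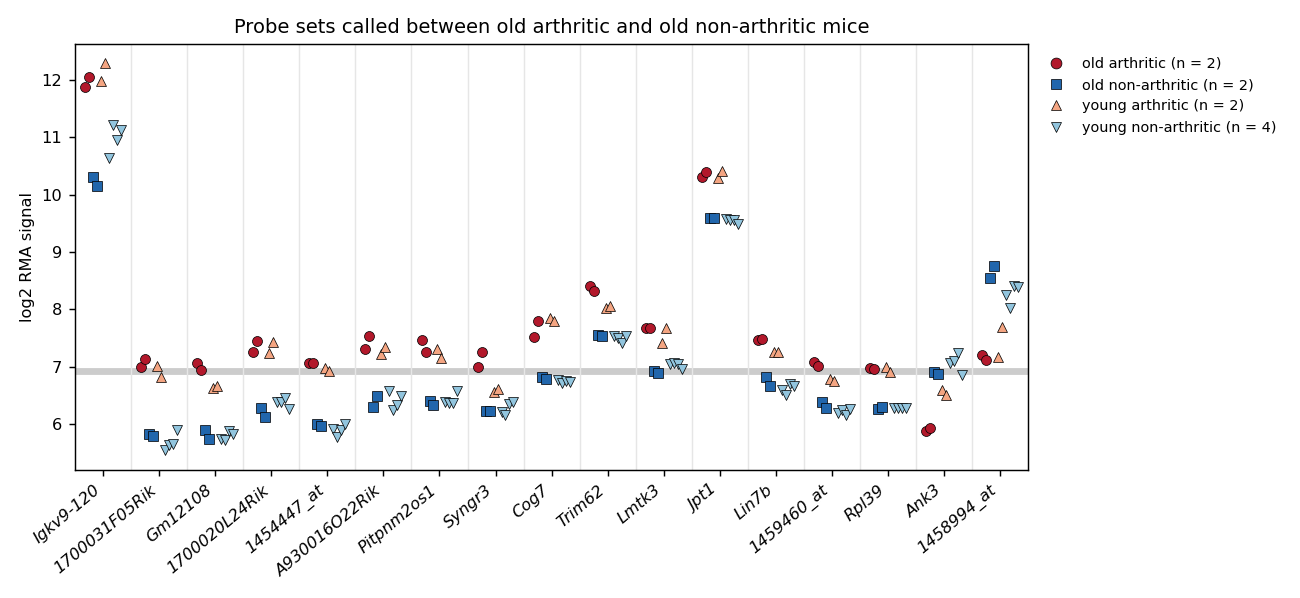
Log2 RMA signal (y-axis) of the 17 called probe sets (x-axis, in order of the difference) in all 10 arrays, where each point is 1 mouse and colors and shapes mark the 4 groups as in the key. The gray band spans the array medians (6.88 to 6.96), and 13 of the 17 probe sets have an old group mean below those of their arrays.

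Neutrophil genes were prominent among the genes with wide separations upward. When the 11870 named genes, each by its brightest probe set, were ranked by the gap between the lower arthritic and the higher non-arthritic value, 12 of the first 15 were members of the neutrophil lists. The 15 gaps ran from 1.07 to 1.35 (log2), and the 16th gene, Gm12108, had 1.03. The called Igkv9-120 probe set, which is not the brightest of its gene, had a wider gap of 1.57. Since the gap ranks the genes on the measured difference itself, the values are a description. Lcn2, which encodes the iron-scavenging protein lipocalin-2 of secondary granules, gave 12.74 and 13.34 in the arthritic and 11.09 and 11.39 in the non-arthritic mice. Mmp8, neutrophil collagenase, gave 9.62 and 10.62 against 8.22 and 8.28. Ctsg, the primary granule protease cathepsin G, gave 11.39 and 11.89 against 10.07 and 10.04. Prtn3, proteinase 3, another primary granule protease, gave 12.76 and 13.12 against 11.45 and 11.44. In each of these genes arthritic replicate 2 was the higher arthritic mouse. Replicate 1 lay more than 1 log2 unit above both non-arthritic mice, which follows from the choice of the genes by the gap. None of the 4 passed the threshold of the fit, in which the log2 differences were 1.80 for Lcn2 (SE 0.38, limma adjusted p = 0.093), 1.87 for Mmp8 (SE 0.43, limma adjusted p = 0.103), 1.59 for Ctsg (SE 0.40, limma adjusted p = 0.118) and 1.50 for Prtn3 (SE 0.39, limma adjusted p = 0.121). With age in months as a covariate the differences were 1.66, 1.82, 1.02 and 1.05 in the same order, at limma adjusted p-values of 0.68 to 0.75. Both old arthritic mice were 9 months of age, so the age slope came from age differences within the other groups. It was extended to an age that none of them had. Here and below, values with this covariate therefore do not separate arthritis from age. In such whole-tissue samples, more cells of a type and more RNA per cell cannot be told apart.

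The promoters of these 4 genes are shown because the genes had wide gaps and belong to both granule classes. Each runs from 250 bases before to 50 bases after the transcription start in the RefSeq annotation of GRCm38.p6, in the direction of the gene. Capitals mark matches to TTGCNNAA, the core of a site for C/EBP factors, and to GAGGAA, a core of sites for PU.1, either of them on either strand (TTNNGCAA and TTCCTC on the other). Both factor families are known to drive granule genes in myeloid precursors. No marked matches overlap.
Lcn2, chr2:32387690-32387989, minus strand: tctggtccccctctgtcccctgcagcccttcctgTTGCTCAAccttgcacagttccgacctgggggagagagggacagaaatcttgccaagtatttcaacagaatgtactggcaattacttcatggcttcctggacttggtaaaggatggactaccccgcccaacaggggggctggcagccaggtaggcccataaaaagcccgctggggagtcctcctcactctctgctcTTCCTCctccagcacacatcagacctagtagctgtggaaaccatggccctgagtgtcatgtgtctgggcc
Mmp8, chr9:7558179-7558478, plus strand: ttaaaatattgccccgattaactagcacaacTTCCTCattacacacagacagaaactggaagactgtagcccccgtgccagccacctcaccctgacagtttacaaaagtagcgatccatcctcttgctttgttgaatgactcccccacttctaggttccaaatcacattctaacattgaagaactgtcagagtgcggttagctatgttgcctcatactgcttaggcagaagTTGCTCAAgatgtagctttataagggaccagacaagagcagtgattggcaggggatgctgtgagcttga
Ctsg, chr14:56102525-56102824, minus strand: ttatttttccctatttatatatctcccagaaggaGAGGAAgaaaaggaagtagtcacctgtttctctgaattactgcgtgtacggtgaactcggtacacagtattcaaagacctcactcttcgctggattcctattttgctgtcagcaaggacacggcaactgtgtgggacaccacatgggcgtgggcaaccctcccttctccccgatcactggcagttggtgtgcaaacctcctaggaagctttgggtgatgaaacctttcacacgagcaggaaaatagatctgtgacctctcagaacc
Prtn3, chr10:79879417-79879716, plus strand: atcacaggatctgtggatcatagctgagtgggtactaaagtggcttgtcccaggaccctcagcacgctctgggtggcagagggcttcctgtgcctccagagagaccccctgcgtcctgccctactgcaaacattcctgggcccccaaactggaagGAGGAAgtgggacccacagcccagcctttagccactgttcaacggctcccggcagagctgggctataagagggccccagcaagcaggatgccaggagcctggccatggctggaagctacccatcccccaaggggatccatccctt

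The Lcn2 and Mmp8 promoters each hold 1 match to the C/EBP letters and 1 to the PU.1 letters, and the Ctsg and Prtn3 promoters each hold 1 match to the PU.1 letters and none to the C/EBP letters. Of the 32 kept genes of both neutrophil lists, 28 had a promoter in the RefSeq table. Among these, 9 (32.1%) held the C/EBP letters and 20 (71.4%) the PU.1 letters. Over all 32851 promoters of the table the shares were 10.8% and 28.3%. A match is a description of the letters and not a sign that a factor was bound in these spleens.

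All 7 primary granule genes lay higher in both arthritic than in both non-arthritic mice, against 38.4% of all named genes. Elane, neutrophil elastase, gave 12.77 and 13.11 against 11.47 and 11.65. Mpo, myeloperoxidase, gave 13.20 and 13.63 against 12.07 and 12.22. Ms4a3, a membrane protein of granulocyte precursors, gave 10.58 and 11.14 against 9.30 and 9.33. Gfi1, a repressor needed for neutrophil differentiation, and the protease inhibitor Serpinb1a had the smallest gaps, with 7.45 and 8.05 against 7.00 and 7.23, and 11.71 and 12.10 against 11.52 and 11.56. The median of the list was 1.20 in arthritic replicate 1 and 1.55 in replicate 2, relative to the mean of the non-arthritic mice. The smallest limma adjusted p of the list was 0.116.

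Of 25 secondary granule and mature neutrophil genes, 20 lay higher in both arthritic mice, none lay lower in both and 5 overlapped, where 38.4% of all named genes lay higher. Ltf, the iron-binding lactoferrin, gave 13.19 and 13.65 against 11.67 and 12.05. Camp, the antimicrobial cathelicidin, gave 13.74 and 14.21 against 12.54 and 13.01. Ngp, another cathelicidin-like granule protein, gave 14.46 and 14.75 against 13.61 and 13.84. Cd177, a surface protein of neutrophils, gave 10.64 and 11.37 against 9.08 and 9.53. Chil3, a chitinase-like protein, gave 10.94 and 11.83 against 9.54 and 9.81. The genes of both S100 calgranulin subunits, S100a8 and S100a9, had narrower separations, with 14.61 and 14.73 against 14.21 and 14.19, and 14.64 and 14.79 against 13.98 and 14.15.

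The 5 neutrophil genes that overlapped encode receptors, a grouping made after their values were seen. Cd177, also a surface protein, lay above. Cxcr2, the chemokine receptor that draws mature neutrophils into tissue, gave 9.27 and 9.78 in arthritic and 9.66 and 9.54 in non-arthritic mice. Csf3r, the G-CSF receptor, gave 10.69 and 10.93 against 10.52 and 10.71. Il1r2, a decoy receptor for interleukin-1, gave 7.77 and 8.23 against 7.87 and 7.71. The lectins Clec4d and Clec4e had log2 differences of 0.17 and 0.29. Differences of the 20 genes that lay above ran from 0.47 (S100a8) to 1.87 (Mmp8), against -0.08 to 0.29 in these receptors. Median differences were 0.81 for arthritic replicate 1 and 1.45 for replicate 2, and in replicate 1 alone 20 of the 25 lay above both non-arthritic mice (45.2% of all named genes) and 1 below (32.6%).

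**Figure D2:**
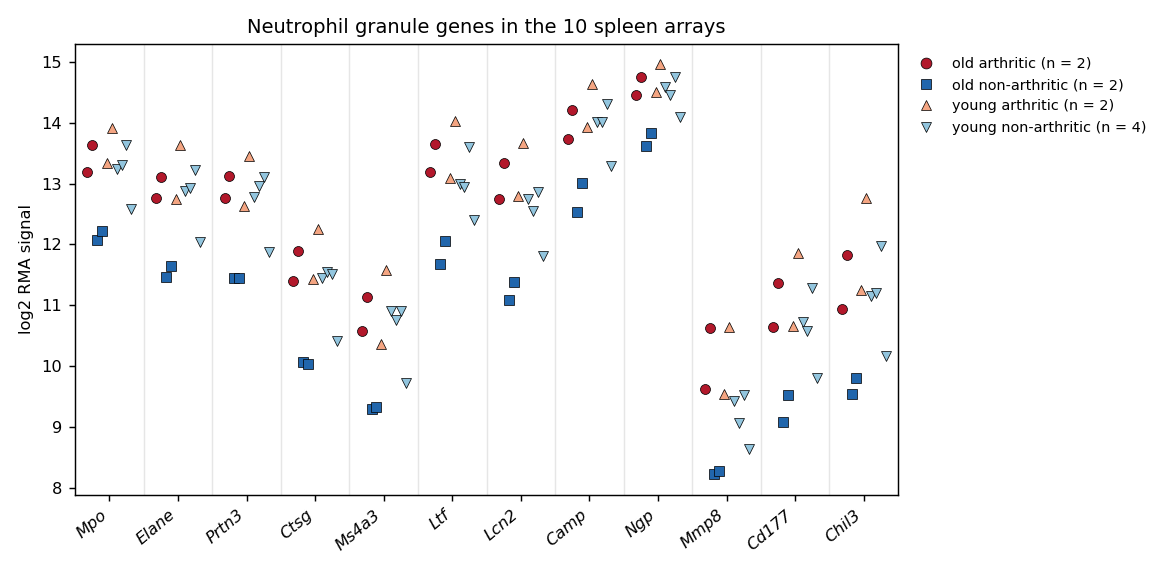
Log2 RMA signal (y-axis) of 12 neutrophil granule genes (x-axis) in all 10 arrays, where each point is 1 mouse and colors and shapes mark the 4 groups. In each gene both old arthritic mice lie above both old non-arthritic mice, and young mice reach the values of the old arthritic mice, for example with 12.80 to 13.66 with and 11.81 to 12.86 without arthritis for Lcn2.

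In 13 of the 15 genes with the widest gap the 2 old non-arthritic arrays were the lowest of all 10, against 4.95% of all named genes. The choice of the 15 by the gap favors this order, so the count is a description. Lcn2 ranged from 11.81 to 12.86 in the 4 young non-arthritic mice, which had not developed arthritis either, and thus reached the value of old arthritic replicate 1. Prtn3 ranged from 11.87 to 13.11 in the young non-arthritic mice and gave 12.63 and 13.45 in the young arthritic mice. In the young group, 3 of the 15 genes lay above in both arthritic mice, none below and 12 overlapped, where 30.2% of all named genes lay above. The other members of the 15 were Olfm4, the glycoprotein olfactomedin-4, with a log2 difference of 1.45, the peptidoglycan receptor Pglyrp1, the antiprotease-like Wfdc21, the stem cell glycoprotein Prom1, and Stfa3 and 1700031F05Rik with means below the array medians in non-arthritic mice.

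Genes of dividing cells lay higher in the arthritic mice, with 26 of 30 above both non-arthritic mice (38.4% of all named genes), none below (16.6%) and a median log2 difference of 0.39. The helicase subunit gene Mcm2 gave 11.82 and 11.90 against 11.31 and 11.23. Cdk1, the kinase that starts mitosis, gave 11.52 and 11.65 against 11.02 and 11.00, and E2f1, a transcription factor of the G1/S transition, gave 9.03 and 9.28 against 8.64 and 8.50. Mki67, the usual marker of proliferation, overlapped with 13.17 and 12.74 against 12.87 and 13.08. In arthritic replicate 1 alone, all 30 genes lay above both non-arthritic mice, against 45.2% of all named genes, and the medians of the arthritic mice were 0.35 and 0.39. The smallest limma adjusted p of the list was 0.10.

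Erythroid genes lay higher in both arthritic mice in 27 of 30 cases (38.4% of all named genes), none lay lower, and the median was 0.29 in arthritic replicate 1 and 0.28 in replicate 2. Car1, the carbonic anhydrase of red cell precursors, gave 12.65 and 12.67 against 11.98 and 12.13. Gata1, the transcription factor of the erythroid and megakaryocyte lineages, gave 11.44 and 11.50 against 10.97 and 10.95. Cpox, an enzyme of heme synthesis, gave 9.69 and 9.89 against 9.26 and 9.05. Alas2, the first enzyme of heme synthesis in erythroid cells, overlapped with 13.53 and 13.72 against 13.53 and 13.32, as did the anion exchanger gene Slc4a1 with 13.77 and 13.93 against 13.78 and 13.67. Of 19 megakaryocyte and platelet genes, 15 lay higher and none lower, against the same 38.4%. Gp1bb, a subunit of the von Willebrand factor receptor, gave 11.60 and 11.55 against 11.12 and 11.06, and Pf4, platelet factor 4, gave 13.29 and 13.17 against 12.95 and 12.91. Here replicate 1 was the higher arthritic mouse, with a median of 0.36 against 0.24 in replicate 2. No gene of either list passed the threshold, with a smallest limma adjusted p of 0.12 for erythroid and 0.24 for megakaryocyte genes.

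**Figure D3:**
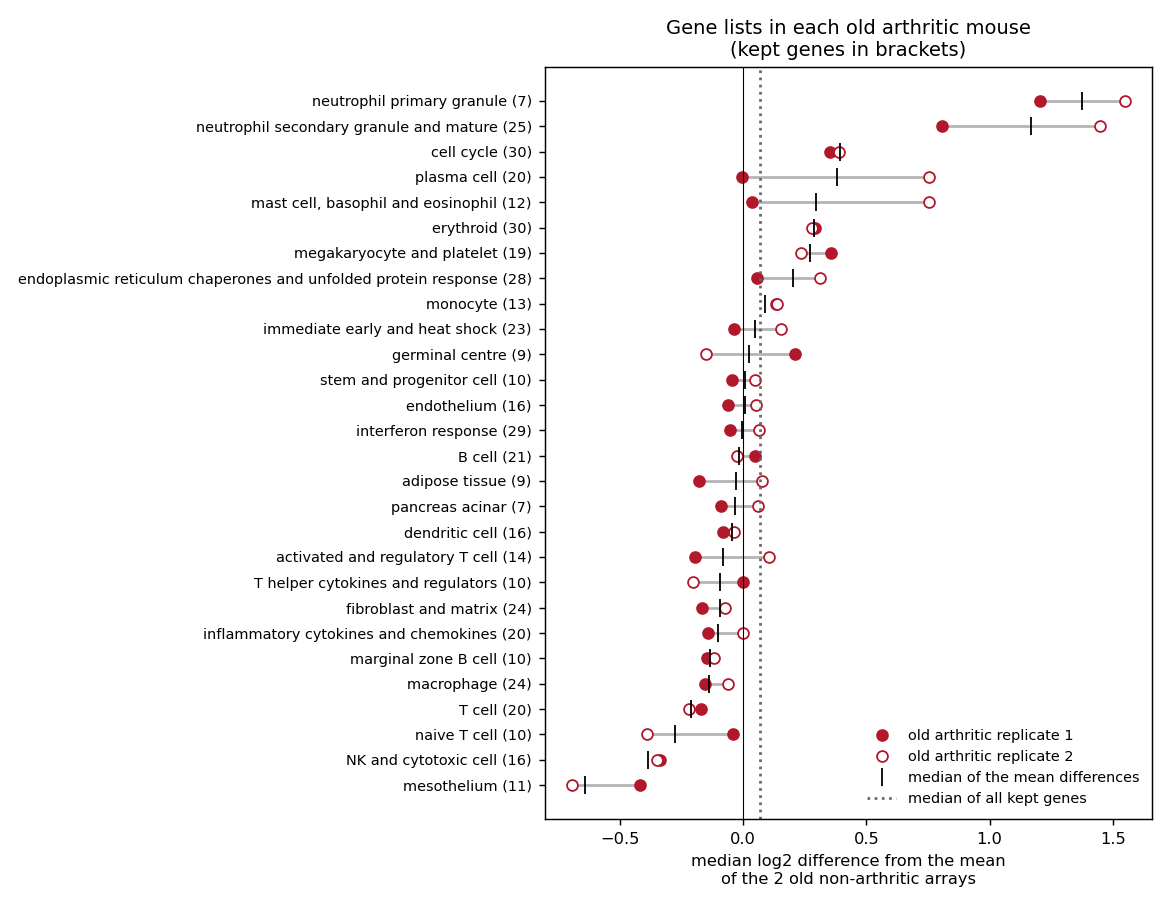
Median log2 difference (x-axis) of the kept genes of 28 lists (y-axis, number of genes in brackets) between each old arthritic mouse and the mean of the 2 old non-arthritic mice. Filled points are arthritic replicate 1, open points replicate 2, ticks the median of the mean differences and the dotted line the median of all named genes (0.07); the neutrophil lists lie at 0.81 to 1.55, and the plasma cell list lies at -0.01 in one mouse and 0.76 in the other.

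T cell genes lay lower in the arthritic mice, with 14 of 20 below both non-arthritic mice and none above, against 16.6% of all named genes below. The median was -0.17 in arthritic replicate 1 and -0.22 in replicate 2. Bcl11b, a transcription factor of T cell identity, gave 9.42 and 9.29 against 9.97 and 9.96, the widest gap of the list. Cd5, an inhibitory receptor on T cells, gave 8.97 and 8.86 against 9.29 and 9.31, and Cd247, the zeta chain of the antigen receptor, gave 8.41 and 8.49 against 8.79 and 8.90. The genes of the coreceptors Cd4 and Cd8a gave 10.22 and 10.12 against 10.31 and 10.34, and 9.10 and 9.28 against 9.40 and 9.60. Cd3e, a signaling subunit of the antigen receptor on all T cells, was close to equal with 10.92 and 10.99 against 10.94 and 11.00. Genes of naive T cells had a median of -0.27, of which replicate 1 had -0.04 and replicate 2 had -0.39. Ccr7, the receptor that guides naive T cells to lymphoid tissue, gave 9.91 and 9.84 against 10.19 and 10.38.

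Of 16 genes of NK and cytotoxic cells, 11 lay below both non-arthritic mice (16.6% of all named genes) and none above (38.4%), with a median of -0.34 in replicate 1 and -0.35 in replicate 2. Gzma, granzyme A, gave 11.11 and 10.79 against 11.89 and 11.90 (log2 difference -0.94, SE 0.31, limma adjusted p = 0.168). Klrd1, the CD94 subunit of NK receptors, gave 8.59 and 7.68 against 9.01 and 9.23, and Ncr1, the NK receptor NKp46, gave 9.34 and 8.67 against 9.82 and 9.95. Eomes, a transcription factor of NK and memory CD8+ T cells, gave 8.33 and 8.41 against 8.93 and 8.94. In contrast, Ccl5, a chemokine of cytotoxic cells, gave 12.26 and 12.20 against 12.25 and 12.39, and Gzmk, granzyme K, was highest in arthritic replicate 2 with 8.74 against 7.57 to 7.72 in the other old mice. The smallest limma adjusted p was 0.11 in both the T cell and the NK list. With age in months as a covariate the median of the NK list was -0.85, and the difference of Gzma was -1.61 (limma adjusted p = 0.67).

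Cytokines by which T helper responses are told apart were mostly too dim to compare. Of 21 T helper cytokines and regulators on the array, 10 were kept, and Ifng, Il4, Il17a, Il6, Il2 and Il10 did not pass the filter. Of the 10, 1 lay above both non-arthritic mice (10% against 38.4% of all named genes) and 4 below (40% against 16.6%). The medians were -0.0021 in replicate 1 and -0.20 in replicate 2. Tnf gave 7.88 and 8.14 in the arthritic and 7.65 and 7.67 in the non-arthritic mice (log2 difference 0.35, SE 0.11, limma adjusted p = 0.17). Tbx21, the transcription factor of Th1 cells, gave 8.39 and 8.20 against 8.75 and 8.76. Foxp3, which marks regulatory T cells, and Il2ra, which encodes CD25 of regulatory and activated T cells, did not pass the filter. Of 14 kept genes of activated and regulatory T cells none lay above and 3 lay below both non-arthritic mice, including the inducible costimulator Icos with 9.00 and 9.14 against 9.31 and 9.39. The share of 21.4% below is near the 16.6% of all named genes. The mice differed here, since replicate 1 alone lay below in 13 of the 14 (32.6% of all named genes), and the medians were -0.19 in replicate 1 and 0.11 in replicate 2.

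Of 21 B cell genes, 4 lay above and 4 below, or 19% each way against 38.4% and 16.6% of all named genes, with medians of 0.05 in replicate 1 and -0.03 in replicate 2. The B cell antigen CD20, encoded by Ms4a1, gave 12.95 and 12.87 against 12.79 and 12.91. Plasma cell genes depended on the mouse. Their median was -0.01 in arthritic replicate 1 and 0.76 in replicate 2. Of the 20, 17 overlapped, 3 lay above (15% against 38.4% of all named genes) and none lay below (16.6%). Sdc1, the plasma cell antigen CD138, gave 9.73 and 10.92 against 9.73 and 9.81. Prdm1, which encodes the plasma cell regulator Blimp-1, gave 9.12 and 10.41 against 9.13 and 9.26. Tnfrsf17, the survival receptor BCMA, was 1 of the 3 genes with both arthritic mice above, at 8.07 and 9.33 against 7.68 and 7.69. Jchain, the joining chain of IgA and IgM, was another and gave 14.27 and 14.56 against 14.22 and 14.19. Chaperones and unfolded protein response genes had medians of 0.06 and 0.31, with 14 of 28 above (50% against 38.4% of all named genes) and 1 below. Their main chaperone Hspa5, or BiP, overlapped with 13.12 and 13.34 against 13.19 and 13.34.

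Antibody genes differed by probe set. Of 16 immunoglobulin genes, a list added after the values had been seen, 4 lay above (25% against 38.4% of all named genes) and none below both non-arthritic mice, with medians of 0.17 in replicate 1 and 0.13 in replicate 2. The kappa segment Igkv6-14 gave 12.89 and 12.43 against 11.71 and 11.92 (log2 difference 0.85, SE 0.20, limma adjusted p = 0.10). Igha, the heavy chain of IgA, overlapped with 14.30 and 14.75 against 14.41 and 14.69. The brightest probe set of Ighm, the heavy chain of IgM, gave 15.31 and 15.36 against 15.26 and 15.27. Another Ighm probe set (1425247_a_at) gave 14.69 and 14.54 against 13.16 and 14.09, with the low value in non-arthritic replicate 1, and 1425324_x_at had the same order with 14.53 and 14.29 against 12.61 and 13.86. Probe sets of immunoglobulin genes can share target sequence, so these values do not count single genes.

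Of 24 macrophage genes, 12 lay below both non-arthritic mice (16.6% of all named genes) and 1 above (38.4%), with medians of -0.15 in replicate 1 and -0.06 in replicate 2. Csf1r, the receptor for the macrophage growth factor CSF-1, gave 13.50 and 13.30 against 13.78 and 13.68. Adgre1, the F4/80 antigen, gave 10.84 and 10.81 against 11.20 and 11.09. The complement genes C1qa, C1qb and C1qc, made by macrophages, had log2 differences of -0.04, -0.08 and 0.05. Of 13 monocyte genes, 6 lay above (46.2%) and 2 below (15.4%), near the shares of all named genes, with medians of 0.13 and 0.14, and Ifitm6 had the widest gap with 12.08 and 12.74 against 11.21 and 11.23. Of 20 inflammatory cytokine and chemokine genes, 4 lay above (20%) and 5 below (25%), with a median of -0.14 in replicate 1 and -0.0004 in replicate 2. Il1b, interleukin-1β, gave 10.98 and 11.15 against 10.80 and 11.28, and Osm, oncostatin M, gave 8.09 and 8.10 against 7.67 and 7.67 (log2 difference 0.42, SE 0.10, limma adjusted p = 0.11). Interferon response genes had medians of -0.05 and 0.06 with 5 of 29 above and 5 below (17.2% each way).

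Of 12 genes of mast cells, basophils and eosinophils, 4 lay above (33.3% against 38.4% of all named genes) and none below. Mcpt8, the protease by which basophils are recognized, gave 8.42 and 8.48 against 7.30 and 7.57, and Hdc, the enzyme that makes histamine, gave 9.13 and 9.46 against 8.45 and 8.68. Medians were 0.03 in arthritic replicate 1 and 0.75 in replicate 2, with mast cell proteases such as Tpsb2 at 8.20 and 9.36 against 8.24 and 8.84. Mesothelial genes, which mark the capsule of the spleen, lay lower in 8 of 11 cases (16.6% of all named genes) and higher in 2, with medians of -0.42 and -0.69. Efemp1, a matrix glycoprotein, gave 8.49 and 8.54 against 9.09 and 9.38, and Upk3b, a mesothelial membrane protein, gave 8.56 and 7.87 against 8.86 and 9.18. How much capsule each piece of spleen held was not recorded in the labels, and its part in these values was not tested. With age in months as a covariate the mesothelial median was -0.21, that of mast cells, basophils and eosinophils 0.69, and that of fibroblast and matrix genes 0.17 in place of -0.09.

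The other lists of cell types are given by their counts and by the medians of replicate 1 and replicate 2, beside 38.4% of all named genes above and 16.6% below. Fibroblast and matrix genes gave 2 of 24 above and 6 below, with medians of -0.17 and -0.07. Endothelial genes gave 2 of 16 each way (-0.06 and 0.05), and dendritic cell genes 2 of 16 above and 5 below (-0.08 and -0.03). Marginal zone B cell genes gave 2 of 10 above and 4 below (-0.15 and -0.12). Germinal center genes differed by mouse, with 1 of 9 above and 2 below in both, but 6 above and 2 below in replicate 1 alone, and medians of 0.21 in replicate 1 and -0.15 in replicate 2. Stem and progenitor genes gave 3 of 10 above and 2 below (-0.04 and 0.05), and immediate early and heat shock genes 6 of 23 above and 1 below (-0.04 and 0.16). Adipose genes gave 1 of 9 each way (-0.18 and 0.08) and pancreatic genes 2 of 7 each way (-0.09 and 0.06).

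The genes with the widest gap in the other direction did not belong to one list. The first 15 had gaps of 0.58 to 1.89, and the 16th, Fat4, had 0.56. Again the gap is the measure they were chosen by, and the values are a description. Esm1, a proteoglycan secreted by endothelium, gave 7.13 and 7.18 in the arthritic and 8.41 and 8.09 in the non-arthritic mice. Hs6st2, a heparan sulfate sulfotransferase, gave 10.33 and 9.97 against 10.95 and 11.10. Atg2a, a lipid transfer protein of autophagy, gave 8.20 and 8.22 against 8.89 and 9.01. Clec2d, a ligand of the NK receptor family Nkrp1, gave 8.76 and 8.24 against 9.46 and 9.90. St8sia1, which makes the ganglioside GD3, gave 7.26 and 7.30 against 8.27 and 8.14, and Rspo1, a Wnt pathway ligand, gave 7.29 and 7.15 against 7.88 and 8.32. Gzma and the mesothelial gene Lrrn4 (6.86 and 7.02 against 7.60 and 8.01) also belonged to the 15, with the adenylate cyclase gene Adcy1. The widest gap of all, in G530011O06Rik, was between 5.56 and 5.56 and 7.46 and 7.44, with the arthritic values below the array medians. The called Ank3, Mid1, Mt3, Slit2 and Clec3b also had a group mean below the array medians. In the young group 8 of the 15 lay below in both arthritic mice (4.98% of all named genes), none above (30.2%) and 7 overlapped. The filter used the young arrays too, and a dim gene such as Ank3 passed it through non-arthritic arrays only. That favors values below in young arthritic mice, so the count is a description.

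**Figure D4:**
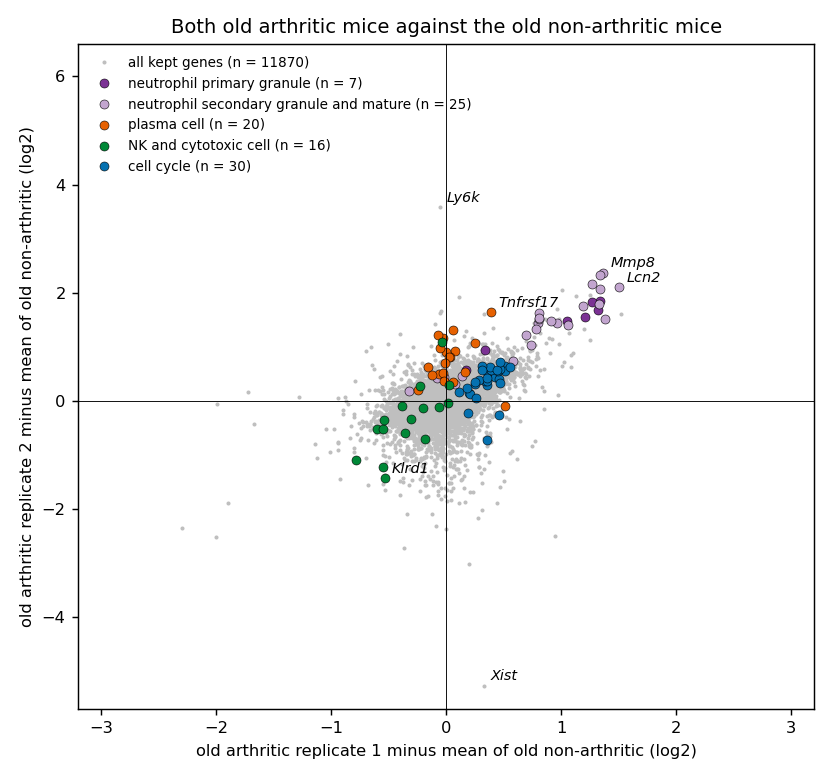
Log2 difference of each old arthritic mouse from the mean of the 2 old non-arthritic mice, replicate 1 on the x-axis and replicate 2 on the y-axis, for 11870 named genes (gray) and the genes of 5 lists (colors). Both axes share the non-arthritic mean, so points lean to the diagonal by construction. Neutrophil genes lie to the upper right, plasma cell genes lie near 0 on the x-axis and mostly above 0 on the y-axis, and Xist and Ly6k differ in replicate 2 alone.

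The arthritic mice differed from each other more than the non-arthritic mice did. The SD over genes of the difference within the pair was 0.30 for the arthritic and 0.18 for the non-arthritic mice, and 173 against 22 genes differed by over 1 log2 unit. Of the former, 132 were lower in arthritic replicate 2 and 41 higher. Genes higher in replicate 2 included Ly6k, a GPI-anchored protein best known from testis, with 6.69 and 10.33 in the arthritic and 6.58 and 6.92 in the non-arthritic mice, and Chac1, a glutathione-degrading enzyme induced by the unfolded protein response, with 6.80 and 8.60 against 6.66 and 6.71. The mast cell tryptase Tpsab1 gave 7.89 and 9.57 against 7.62 and 8.27. Adipoq, the fat cell hormone adiponectin, gave 5.58 and 7.47 against 7.99 and 6.63, and Car3, a carbonic anhydrase of fat and muscle, gave 8.47 and 10.40 against 11.06 and 9.87, so both groups held a high and a low mouse.

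Among genes lower in replicate 2 after Xist, Rgs13, a signaling regulator of germinal center B cells, gave 7.95 and 4.51 in the arthritic and 6.25 and 7.77 in the non-arthritic mice. Ptpn4, a tyrosine phosphatase, gave 9.46 and 7.23 against 9.41 and 9.69, and Ttc14 gave 10.40 and 8.02 against 10.14 and 10.65. Nbeal1, Zfp760, AI504432, Ccdc88a, Gm4274 and Znf41-ps belonged to the same set of the 10 widest. In the non-arthritic pair, Dct, an enzyme of melanin synthesis, gave 5.77 in replicate 1 and 9.74 in replicate 2, against 5.46 and 5.40 in the arthritic mice. Its values in young mice ranged from 5.10 to 10.46 with arthritis and from 5.78 to 11.69 without. Pmel, a melanosome protein, gave 6.77 and 8.69 in the non-arthritic and 7.03 and 7.34 in the arthritic mice. Of 8 melanocyte genes, a list added after the values had been seen, 5 lay below in both arthritic mice (62.5% against 16.6% of all named genes). Medians of the list were -0.61 in replicate 1 and -0.45 in replicate 2. Dct, Tyr, Tyrp1 and Mlana had a group mean below the array medians. Sri, the calcium-binding protein sorcin, was low in non-arthritic replicate 2 alone with 9.18 against 11.91 in replicate 1 and 12.06 and 12.14 in the arthritic mice. Mid1 gave 6.71 and 9.33 in the non-arthritic mice, and its place among the lower genes rests on the former.

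**Figure D5:**
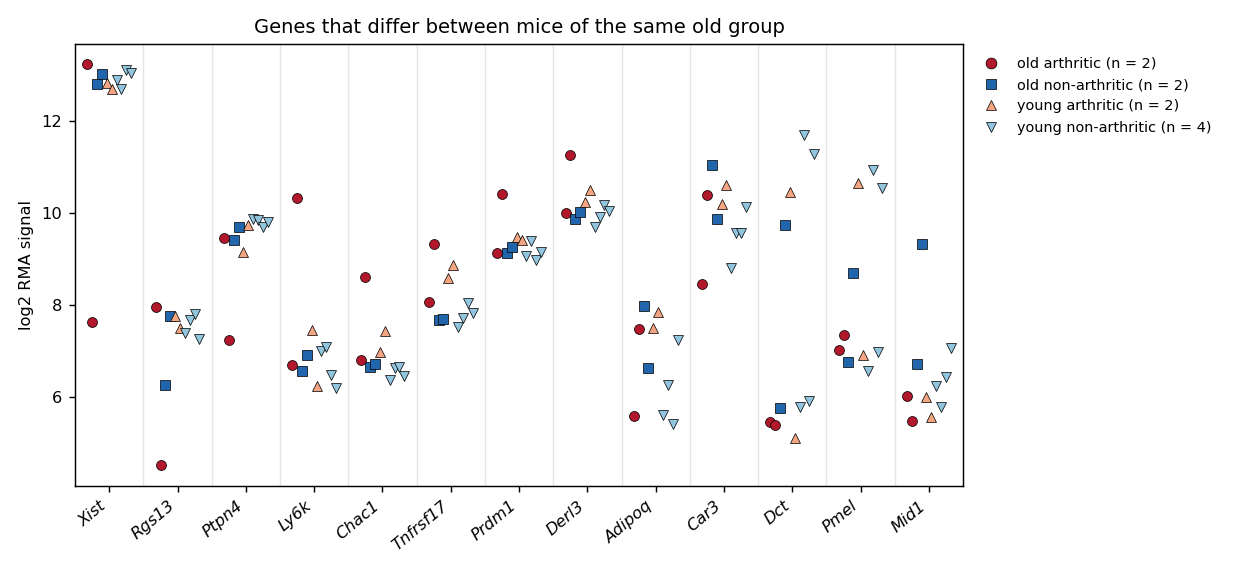
Log2 RMA signal (y-axis) of 13 genes (x-axis) that differ between mice of the same old group, where each point is 1 mouse, colors and shapes mark the 4 groups, and within each group the points run from replicate 1 on the left. Old arthritic replicate 2 lies at 7.64 for Xist, against 12.69 to 13.24 in the other 9 arrays, and at 10.33 for Ly6k.

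Whether arthritis went with other differences in old than in young mice was asked in the same fit. No probe set passed for the difference of the effects (0 of 23805, smallest limma adjusted p = 0.9997, with 737 at an unadjusted p under 0.05), so that the fit called no gene as differing by age group. Primary granule genes had a median log2 difference of 1.38 in old and 0.40 in young mice, and 7 of 7 and 0 of 7 lay above, beside 38.4% and 30.2% of all named genes. Secondary granule and mature neutrophil genes had medians of 1.17 and 0.54, with 20 and 5 of 25 above. Macrophage genes had -0.14 and 0.14, with 1 and 11 of 24 above. Over all named genes, 138 (1.16%) lay below in old and above in young arthritic mice, and 15 (0.126%) lay above in old and below in young arthritic mice. Plasma cell genes had 0.38 and 0.27, with 3 and 11 of 20 above. Cell cycle genes had 0.39 and 0.37. All named genes had 0.07 and 0.11, and the share lying below in arthritic mice was 16.6% in old and 4.98% in young mice, where 2 arrays stood against 4. These pairs of medians carry no test of a list, and the single-gene test called none of their members.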

How the data were processed

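Spleen RNA of 10 PG-immunized mice was hybridized to Affymetrix arrays, each mouse to its own array. The labels call the replicates biological, and p-values reflect the variation among these animals only. Per the labels, the authors deposited log2 signals, 1 per probe set, from RMA (background correction, quantile normalization and summary of probes). Its version is not stated in the labels, and the paper's methods do not describe the arrays. RMA compresses differences of dim probe sets. Of 45101 rows, 64 controls were left out. Of the other 45037, 34945 carry 1 gene symbol in the platform annotation, 932 several and 9160 none, and only those with 1 symbol were named. Probe sets whose signal exceeded the array median in 2 or more of 10 arrays were kept, 23805 in all. Where a gene had several of them, the one of the highest mean signal was used (11870 genes).

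One limma fit (limma 3.58.1, R 4.3.3, lmFit and eBayes) with 4 group means, 10 arrays and 6 residual degrees of freedom gave the old contrast and its difference from the young contrast, with Benjamini-Hochberg adjustment over all kept probe sets and a threshold of 0.05. The fit was tested on simulated data. No duplicate arrays were found. Named genes are those with a called probe set (up to the 10 largest changes each way), the 15 with the widest gap each way, the 10 and 5 that differ most within the arthritic and the non-arthritic pair, and the first 3 kept and 2 widest-gap genes of each list. Jpt1, Rpl39 and Lin7b, further genes of the lists, and other probe sets of named genes were added after their values were seen. The members and lists were chosen with earlier results of these data known. Lists are described by counts and medians beside all named genes. Alternatives covered the filter, normalization, estimate of the spread, array weights, arrays in the fit, the replicate number as a block, age, gene-level means and leaving out each array. Promoters are from RefSeq (GRCm38.p6). Figures were drawn with matplotlib 3.10.9.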

Additional observations from a re-analysis of the deposited data

Results flagged for a closer look

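In 3 of the 184 genes chosen by the rule for naming, both old arthritic mice lay below both old non-arthritic mice while both young arthritic mice lay above all young non-arthritic mice. Of all 11870 genes, 138 (1.16%) had this order and 15 (0.126%) the opposite one. The 3 of 184 are near the share of 1.16%, and many of the 184 were chosen by gaps in the old arrays. The count is therefore a description and no trait of the named genes. For Csf1r, the receptor for CSF-1, the old difference minus the young difference was -0.446 on the log2 scale. Its young arthritic mice gave 13.61 to 13.70 and its young non-arthritic mice 13.50 to 13.57. For Mrc1, the mannose receptor of macrophages, it was -0.437, with 11.49 and 11.50 against 11.75 and 11.72 in old mice and 11.76 to 11.82 against 11.44 to 11.70 in young mice. For Il18r1, a receptor subunit for interleukin-18, it was -0.548, with 9.41 and 9.48 against 9.74 and 9.71 in old mice and 9.66 to 9.85 against 9.38 to 9.62 in young mice. None of the 3 passed the test of the difference itself (limma adjusted p = 0.9997).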

How the results depend on the processing

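The count of 17 called probe sets moved with nearly every alternative. It was 2280 with all 45037 probe sets tested and 0 with a stricter filter that required 8 arrays. Quantile normalization applied again gave 32 and array medians set equal gave 21. Array weights gave 11, a spread that follows intensity gave 7, and averaging the probe sets of each gene gave 66. With only the groups compared it was 0, and with age in months as a covariate it was 0 (1732 at an unadjusted p under 0.05). The cause was not tested, except that more or fewer probe sets or arrays entered some fits. Leaving out each array in turn gave 0 to 1532. The highest count came without old arthritic replicate 1, whereas leaving out old arthritic replicate 2 gave 0. Leaving out old non-arthritic replicate 1 gave 2, and leaving out replicate 2 of that group gave 0. Without young arthritic replicate 1 or 2 it was 6 each, and without young non-arthritic replicates 1 to 4 it was 8, 2, 4 and 9. For the difference of the effects no alternative in the arrays' scaling, filter or spread called a probe set, and leaving out each array gave 0 to 55, the 55 coming without old arthritic replicate 1 and a count of 2 without replicate 1 of the old non-arthritic mice.

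The replicate number as a block gave 0 calls in old mice. The numbers only name the mice, and deviations of the first-numbered arthritic and non-arthritic mice correlated at -0.53. The crossed pairing as a block, added after seeing the data, also gave 0 calls.

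No direction of a called value reversed. Values of called probe sets stayed on their side of the threshold in 68 cases and lost it in 90 when a setting was changed, and in 49 and 121 when an array was left out. Log2 differences of the other described genes moved by over 1 standard error, taken from the spread within the old pairs, in 173 of 1819 cases. By leaving out an array they moved in 1 of 1840, a count that cannot show stability. Leaving out an old array shifts a difference by no more than this standard error by construction, and leaving out a young array does not shift it. Medians of gene lists moved in 28 of 300 cases, and in 42 of 300 when an array was left out. Leaving out a young array cannot change these medians, nor can a setting that alters only the spread. Both totals therefore include cases that could not move. The plasma cell median was -0.01 when old arthritic replicate 2 was left out and 0.76 when replicate 1 was, that of mast cells, basophils and eosinophils 0.03 and 0.75, and that of naive T cells -0.04 and -0.39. No scaling shifted the median of all genes by over 0.1 on the log2 scale. Signals below the array medians limit what 13 of the 17 called probe sets can show.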
